A study of Homo sapiens with 12 samples.

Results

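The 48 genes described here are components of the TGF-beta and BMP pathways, followed in the cytoplasmic RNA of U2OS cells, a human osteosarcoma cell line, after knock-down of the mRNA export regulators DBP5, GLE1 or IPPK. They were listed by gene name, under a rule that uses no measured value, but they and the further lists below were proposed with earlier results of these data known. They comprise 10 ligands, 11 receptors and co-receptors, 8 SMADs, 9 extracellular antagonists, binding or processing proteins, 3 inhibitors in the membrane or nucleus and 7 target or effector genes. All 48 were found among the 27522 gene names on the array, through 59 of its 34127 probes. All 48 also passed the filter on dim probes, which left 20821 genes for testing.

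Ligands of this family are secreted dimers that bring a type II and a type I receptor kinase together at the cell surface. The type I receptor then phosphorylates SMAD2 and SMAD3 (TGF-beta and activin branch) or SMAD1, SMAD5 and SMAD9 (BMP branch), which join SMAD4 and enter the nucleus to regulate genes. BMPs were named for inducing bone, TGF-beta is stored in bone matrix by latent TGF-beta binding proteins, and the cells of this line are of the bone-forming mesenchymal lineage.

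Cells were transfected with control siRNA, DBP5 siRNA, GLE1 siRNA or IPPK siRNA, each at 20 nM per the labels, and RNA isolation followed 48 h of culture per the methods. Cytoplasmic RNA was read on 12 one-colour arrays. They lay on 3 slides, and every slide carried 1 array of each siRNA, so that each group has 3. DBP5 is an RNA helicase at the nuclear pore, GLE1 stimulates it, and IPPK makes the inositol hexakisphosphate that takes part in this stimulation. All groups are transient transfections of the same line, and the labels do not name which of the siRNAs against a gene was used. The methods call the array experiments independent, while neither they nor the labels say whether the 3 arrays of a group came from separate cultures, so p-values measure only the spread between these arrays, which may be technical. An array level does not tell fewer cells with a transcript from less of it per cell, and changes in synthesis, export and decay of an mRNA cannot be told apart in the cytoplasmic fraction.

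The level of a gene is the normalised intensity of its brightest probe, after subtraction of the local background and cyclic loess between arrays. A ratio was obtained by subtracting mean log2 intensities of 2 groups and turning the result back to a linear scale, its SD is that of the 3 arrays of the first group against the mean of the second, and n = 3 arrays for every group. limma was run two-sided on the 12 arrays together, and a gene was called at a Benjamini-Hochberg adjusted p of 0.05 over all 20821 genes. Each targeted mRNA was low on its own arrays, with ratios to control of 0.0643 ± 0.00121 for DDX19B (DBP5), 0.102 ± 0.0274 for GLE1 and 0.187 ± 0.00815 for IPPK. The knock-downs also lowered other targeted mRNAs, with ratios of 0.420 ± 0.0142 for IPPK after DBP5 knock-down, 0.490 ± 0.0237 for DDX19B and 0.821 ± 0.0461 for IPPK after GLE1 knock-down, and 0.874 ± 0.0277 for DDX19B and 0.717 ± 0.0464 for GLE1 after IPPK knock-down, all past limma. DDX19A, the close relative of DDX19B, fell to 0.0536 ± 0.00258, 0.541 ± 0.00934 and 0.301 ± 0.00413 on the DBP5, GLE1 and IPPK siRNA arrays. The share of probes well above background ran from 73.4% to 77.7% on the control, DBP5 and GLE1 siRNA arrays and from 70.9% to 73.8% on the IPPK siRNA arrays. Of 8 mesenchymal and osteoblast markers, 7 were well above background on all 12 arrays, as were 18425 of all 27522 gene names. The eighth, the collagen gene COL1A2, was so on 3 control, 0 DBP5, 2 GLE1 and 0 IPPK siRNA arrays, at least 1.47-fold lower than control after DBP5 and 1.1-fold after IPPK knock-down. For such bounds, here and below, readings under the dimmest well-above-background signal of their array were raised to it. The bounds leave out the spread between arrays. Of the 8, 2 were called lower and 3 higher with DBP5 siRNA, 1 and 2 with GLE1 siRNA and 2 and 2 with IPPK siRNA. Of 13 markers of other cell types, 7 were well above background on all 12 arrays and the epithelial keratin KRT5 on none. Their summed intensity was 3380 to 3601 on control arrays, 11230 to 12240 after DBP5, 10170 to 10660 after GLE1 and 7088 to 7272 after IPPK knock-down. Without the neuronal gene RBFOX3 these ranges were 1296 to 1492, 1032 to 1184, 1272 to 1473 and 878.8 to 1118. The epithelial cadherin CDH1 was well above background on 0 of 3 control arrays and on all 3 after DBP5 or GLE1 knock-down, at least 1.64-fold and 8.42-fold higher there, and on 2 after IPPK knock-down. EPCAM, another epithelial marker, moved the other way, from 656.4 to 793.7 on control arrays to 447 to 485.3 with DBP5 siRNA, 436.3 to 602.1 with GLE1 siRNA and 245.3 to 478.3 with IPPK siRNA. The nuclear RNA MALAT1 was at 0.692, 0.798 and 0.474 of control on the DBP5, GLE1 and IPPK siRNA arrays and passed the test as lower on the last of these. The part of these genes and RNAs in the results below was not tested.

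In DBP5 knocked-down cells 17 of the 48 members were higher and 13 lower than control. These were 35.4% and 27.1% of the members, where 26.7% of all genes tested were higher and 27.5% lower. GLE1 knock-down gave the most one-sided count of the 3, with 24 members higher (50%, against 30.6% of all genes) and 7 lower (14.6%, against 31.5%). IPPK knock-down gave 13 higher (27.1%, against 27.3%) and 14 lower (29.2%, against 28%), close to the background in both directions. The median log2 difference from control was 0.23 over the members and 0.01 over all genes after GLE1 knock-down. It was -0.02 for members and -0.02 for all genes after DBP5 knock-down, while IPPK knock-down gave -0.02 and -0.03. These 3 comparisons share the control arrays.

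**Figure D1:**
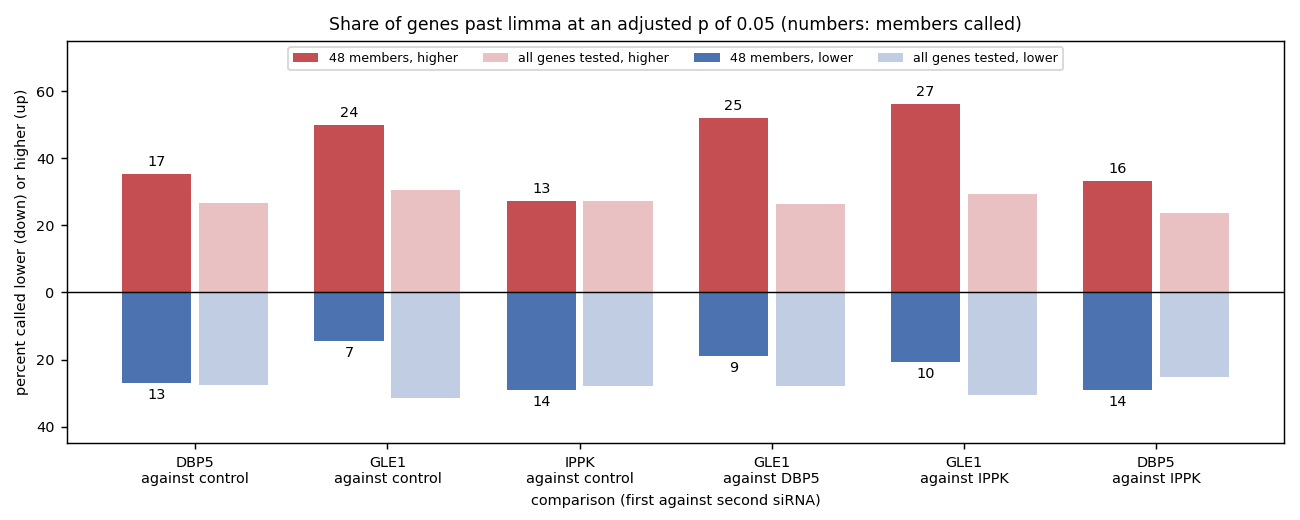
Percent of the 48 members (dark bars, with the number of members above or below) and of all 20821 genes (light bars) called higher (upwards) or lower (downwards) by limma in 6 comparisons. Against control, 24 members were higher and 7 lower after GLE1 knock-down, while the IPPK bars of members and of all genes are nearly level.

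At a difference of at least 1.5-fold as well, 11 members were higher after DBP5 knock-down (22.9%, against 12.6% of all genes) and 5 lower (10.4%, against 12.1%). After GLE1 knock-down these counts were 10 higher (20.8%, against 16%) and 4 lower (8.33%, against 17.7%). After IPPK knock-down they were 5 higher (10.4%, against 13.2%) and 9 lower (18.8%, against 12.6%). At least 2-fold was reached after DBP5 knock-down by 1 member that rose (5.29% of all genes) and 2 that fell (4.48%). After GLE1 knock-down 6 rose (12.5%, against 7.81%) and 3 fell (6.25%, against 8.43%), and after IPPK knock-down 4 fell (8.33%, against 5.35%). The highest ratio of any member after IPPK knock-down was 1.67, that of the brightest probe of BMP7, so that 0 members rose by this much at any p, where 5.8% of all genes did by limma. A dimmer probe of BMP7 did pass 2-fold there. All 30, 31 and 27 members called after DBP5, GLE1 and IPPK knock-down had the same sign on each of the 3 slides, which a call on these same arrays nearly fixes and which is no separate support.

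**Figure D2:**
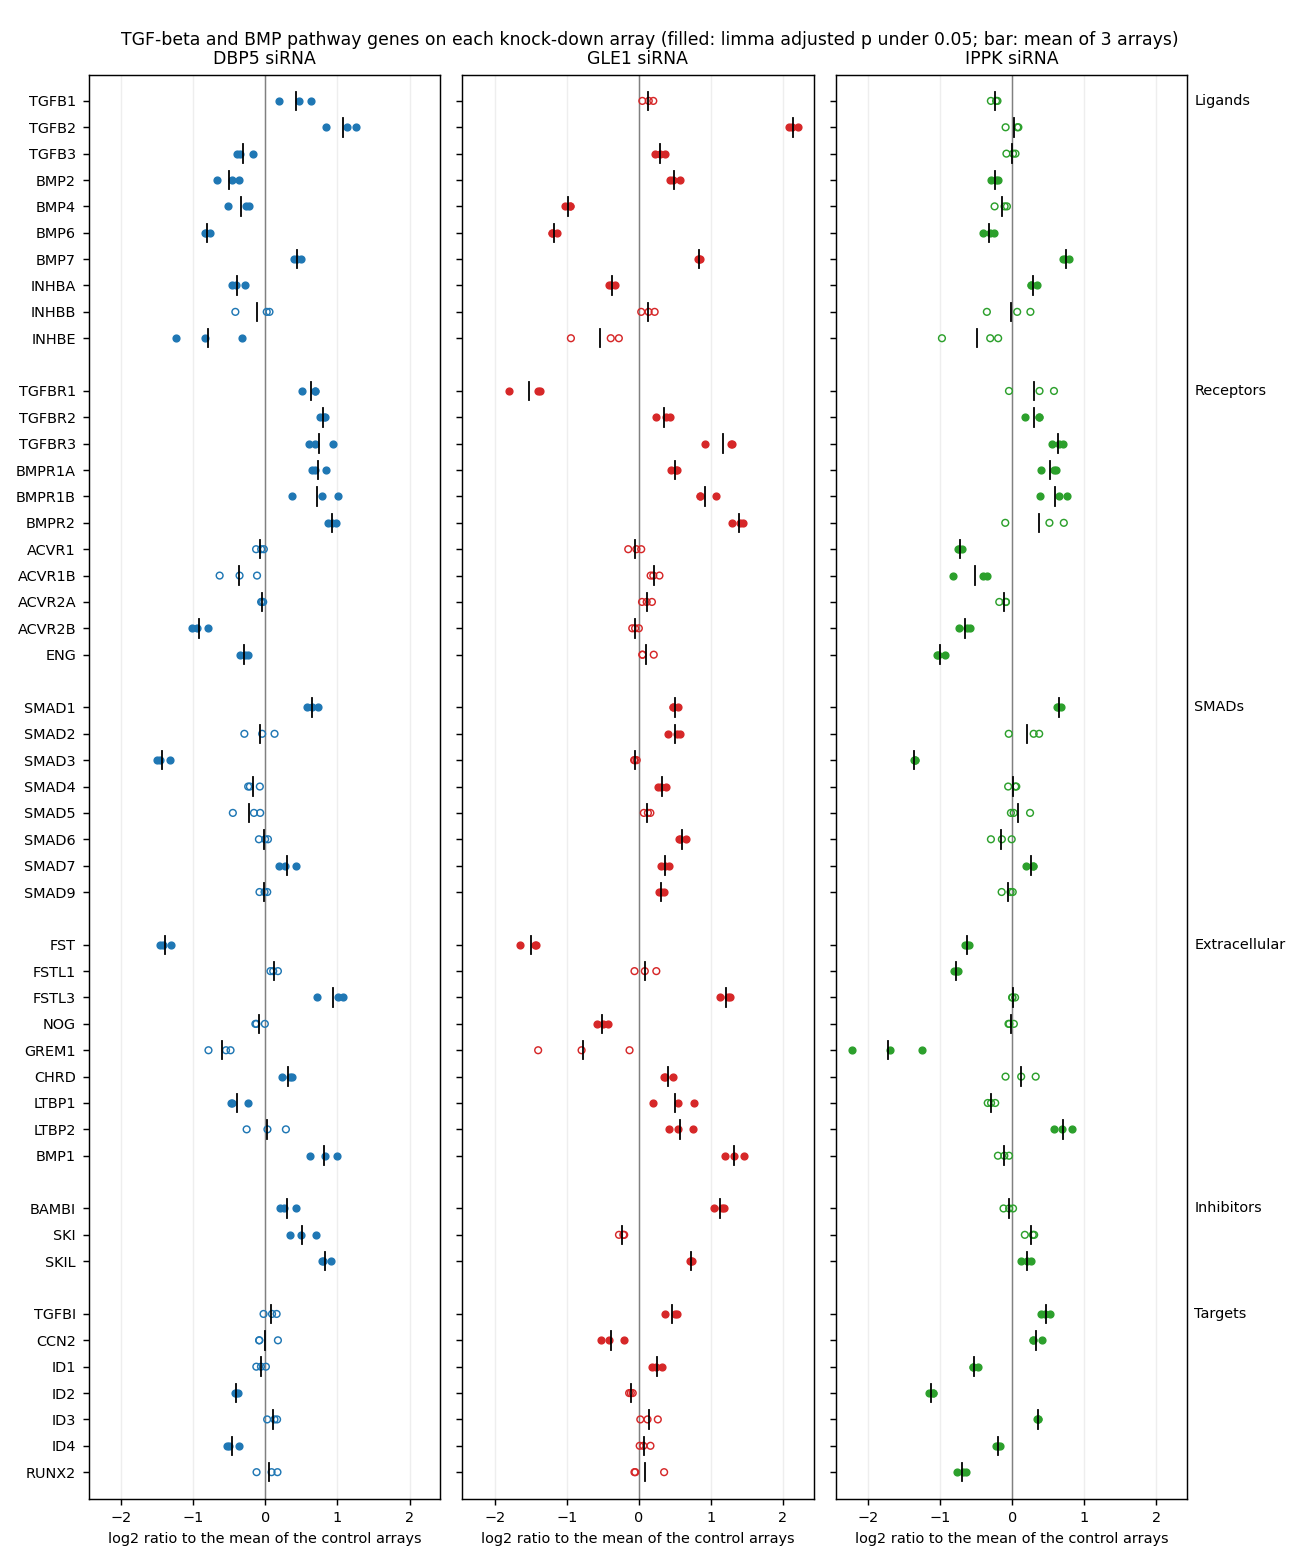
Log2 ratio of each knock-down array to the mean of the control arrays for the 48 members, ordered by role, in 3 panels for DBP5, GLE1 and IPPK siRNA (points are arrays, bars their mean, filled points are members called by limma). TGFB2 lies farthest to the right after GLE1 knock-down, SMAD3 far to the left after DBP5 and IPPK knock-down, and FST to the left of control in all 3 panels.

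Ligands were found in both directions in each knock-down. DBP5 knock-down gave 6 of the 10 lower and 3 higher (all genes 27.5% and 26.7%), GLE1 knock-down 3 lower and 4 higher (all genes 31.5% and 30.6%), and IPPK knock-down 2 in each direction (all genes 28% and 27.3%). Apart from the 6 that fell after DBP5 knock-down, these counts are close to those shares, which also stand behind the counts by role below. TGFB2, which encodes the TGF-beta 2 ligand, gave intensities of 272, 270.3 and 289 with control siRNA, 609, 496 and 663 with DBP5 siRNA, 1168, 1214 and 1276 with GLE1 siRNA and 259.6, 291 and 293 with IPPK siRNA. All GLE1 arrays lay above all DBP5 arrays, and these above all control arrays, while the IPPK and control arrays overlapped. The ratio to control was 4.40 ± 0.195 after GLE1 knock-down (adjusted p = 2.2e-08, limma), the highest of any member in any knock-down, and 2.11 ± 0.308 after DBP5 knock-down (adjusted p = 5.8e-06). After IPPK knock-down it was 1.01, with a 95% interval of 0.871 to 1.18. BMP6, a BMP ligand that also signals iron stores in the liver, gave 533, 546 and 562 with control siRNA, 319.9, 306 and 309.9 with DBP5 siRNA, 236, 236 and 249.9 with GLE1 siRNA and 414, 442 and 459 with IPPK siRNA. The groups did not overlap with each other, and all knock-down arrays lay below all control arrays. Its ratios were 0.571 ± 0.0129 after DBP5 (adjusted p = 4.6e-07), 0.440 ± 0.0146 after GLE1 (adjusted p = 1.6e-08) and 0.801 ± 0.0421 after IPPK knock-down (adjusted p = 0.00038).

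The other BMP ligands differed in direction. BMP4, which acts in early mesoderm and bone, fell to 0.508 ± 0.0149 of control after GLE1 knock-down and to 0.790 ± 0.0847 after DBP5 knock-down, and was 0.906 ± 0.0563 after IPPK knock-down, where the test was not passed. With a replicate block, a term for the slide that pairs the arrays, that fall passed (adjusted p = 0.0481). BMP7, a ligand of kidney and bone development, rose to 1.36 ± 0.0474 with DBP5 siRNA, 1.78 ± 0.0137 with GLE1 siRNA and 1.67 ± 0.0498 with IPPK siRNA. Its other probes also passed in each knock-down, and 1 of them stood at 2.22 after IPPK knock-down (adjusted p = 6.7e-07). BMP2, an inducer of bone formation, was lower after knock-down of DBP5 (0.707 ± 0.0752) or IPPK (0.849 ± 0.0293) and higher after GLE1 knock-down (1.40 ± 0.0708). The IPPK call of BMP2 was lost without control array 2 (adjusted p = 0.0727) or IPPK array 1 (0.0718).

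TGFB1, the most studied TGF-beta ligand, rose after DBP5 knock-down (1.35 ± 0.208), on arrays that overlapped control, and had ratios of 1.09 and 0.845 after GLE1 and IPPK knock-down that did not pass. TGFB3 was lower after DBP5 knock-down (0.810 ± 0.0665) and higher after GLE1 knock-down (1.23 ± 0.0571), and its DBP5 call was lost with normexp background correction (adjusted p = 0.0584). INHBA, the activin A subunit, was at 0.764 ± 0.0476 after DBP5 and 0.771 ± 0.0228 after GLE1 knock-down, both lower, and at 1.22 ± 0.0396 after IPPK knock-down, higher. INHBE, another inhibin beta subunit, was called lower after DBP5 knock-down (0.574 ± 0.188, adjusted p = 0.0329). At 0.689 after GLE1 and 0.710 after IPPK knock-down it did not pass, but did with the replicate block (adjusted p = 0.0021 and 0.00399). The DBP5 call was lost without control array 1 or 2 or DBP5 array 1 or 3, with adjusted p between 0.0759 and 0.127. INHBB, which encodes an activin B subunit, passed in no comparison with control, with 95% intervals of 0.712 to 1.2, 0.843 to 1.42 and 0.765 to 1.29 for DBP5, GLE1 and IPPK.

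**Figure D3:**
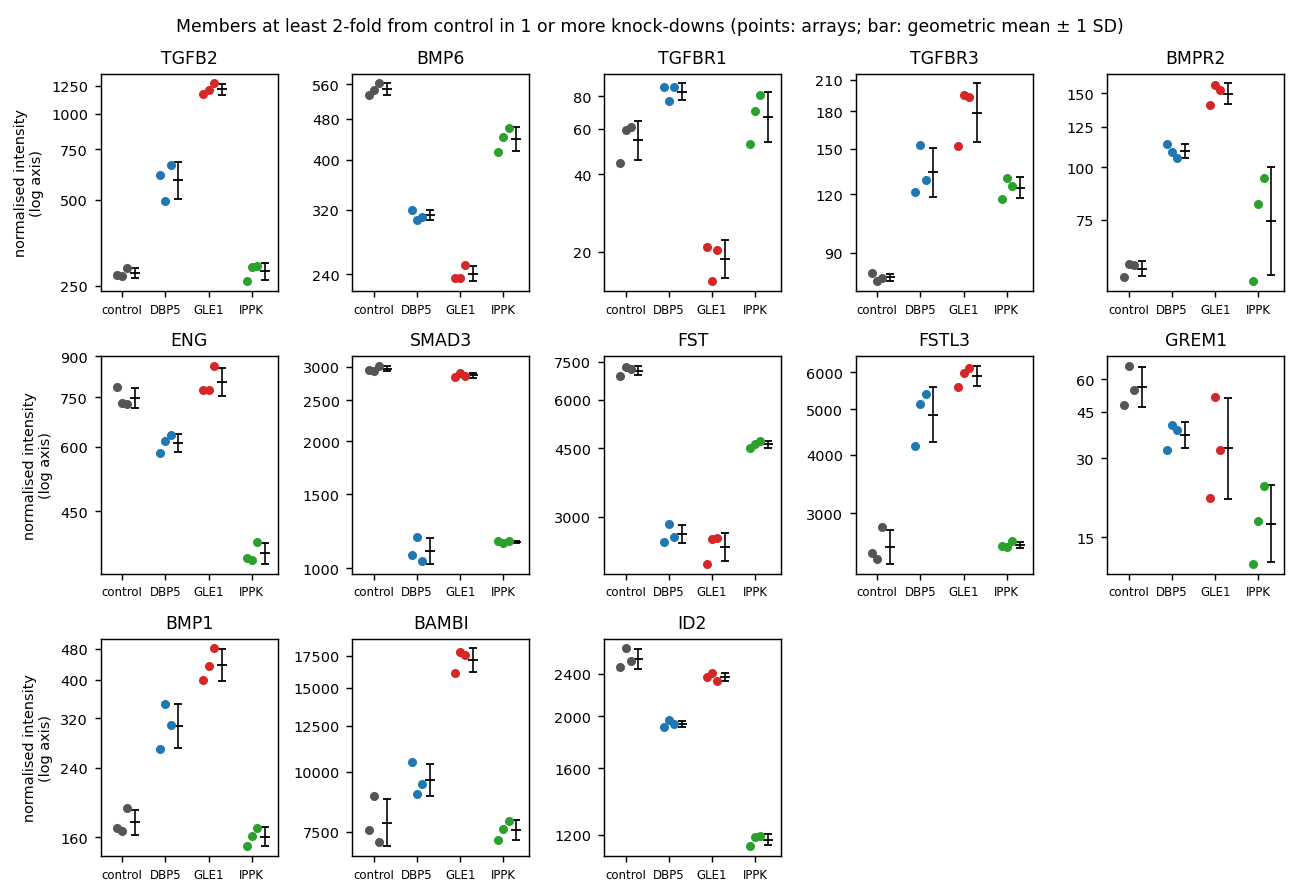
Normalised intensity on each of the 12 arrays (log axis, own scale for each gene) for the 13 members at least 2-fold from control in 1 or more knock-downs, with the geometric mean ± 1 SD beside the points of each siRNA. TGFB2, FSTL3, BMP1 and BAMBI have their highest points after GLE1 knock-down, and SMAD3 is low after DBP5 and IPPK knock-down but near control after GLE1 knock-down, and the IPPK points of GREM1 were not well above background.

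Among the 11 receptors and co-receptors, 6 were higher and 2 lower after DBP5 knock-down, 5 higher and 1 lower after GLE1 knock-down, and 4 higher and 4 lower after IPPK knock-down. TGFBR1, the type I receptor for TGF-beta, gave intensities of 44, 59 and 60.6 with control siRNA, 87.1, 76.6 and 86.8 with DBP5 siRNA, 20.9, 15.4 and 20.4 with GLE1 siRNA and 52.3, 70.2 and 80.6 with IPPK siRNA. All GLE1 arrays lay below all other arrays, and 2 of the 3 were well above background there. The ratio was 0.347 ± 0.056 after GLE1 knock-down (adjusted p = 2.9e-05, limma) and 1.54 ± 0.111 after DBP5 knock-down (adjusted p = 0.0134). With the authors' processed values, which carry no background subtraction, the GLE1 ratio was 0.742. The DBP5 call was lost without control array 1 (adjusted p = 0.0553). TGFBR2, the type II receptor for TGF-beta, rose to 1.74 ± 0.0456 with DBP5 siRNA, 1.28 ± 0.0864 with GLE1 siRNA and 1.24 ± 0.0938 with IPPK siRNA. TGFBR3, the betaglycan co-receptor that presents TGF-beta 2 to the receptors, gave 81.5, 78.6 and 79.5 with control siRNA, 121, 152 and 129 with DBP5 siRNA, 152, 195 and 193 with GLE1 siRNA and 117, 129.9 and 125 with IPPK siRNA. All 9 knock-down arrays lay above all control arrays. Its ratios were 1.67 ± 0.203 (adjusted p = 0.00018), 2.24 ± 0.309 (adjusted p = 4.3e-06) and 1.55 ± 0.0807 (adjusted p = 0.00053) after DBP5, GLE1 and IPPK knock-down. With the authors' processed values the GLE1 ratio of TGFBR3 was 1.61.

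BMPR2, the type II receptor for BMPs, gave intensities of 54.8, 59 and 58.5 with control siRNA, 114, 109 and 105 with DBP5 siRNA, 141, 157 and 152 with GLE1 siRNA and 53.7, 82.1 and 94.2 with IPPK siRNA. The DBP5 and GLE1 arrays lay above all control arrays, and the IPPK arrays overlapped control. The ratio was 2.61 ± 0.143 after GLE1 knock-down (adjusted p = 2.8e-05), 1.90 ± 0.0724 after DBP5 knock-down (adjusted p = 0.00068) and 1.30 ± 0.362 after IPPK knock-down (adjusted p = 0.0753). With normexp the GLE1 ratio was 1.61. The type I BMP receptors BMPR1A and BMPR1B were higher in each knock-down. BMPR1A had ratios of 1.66 ± 0.122, 1.41 ± 0.0441 and 1.44 ± 0.11 in the order DBP5, GLE1, IPPK, and its other probes gave 1.22 to 1.42 and passed as well. BMPR1B had ratios of 1.65 ± 0.367, 1.90 ± 0.177 and 1.51 ± 0.195, and the last of these calls was lost without control array 1 (adjusted p = 0.0713), IPPK array 2 (0.0501) or IPPK array 3 (0.0648). With normexp the BMPR1B ratios were 1.26, 1.27 and 1.15.

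The activin receptors fell or did not pass. ACVR2B, a type II activin receptor, fell to 0.527 ± 0.0421 after DBP5 and 0.636 ± 0.035 after IPPK knock-down and was at 0.968 ± 0.0309 after GLE1 knock-down. The difference between GLE1 and DBP5 knock-down was itself past the threshold (ratio 1.83 ± 0.0585, adjusted p = 1.2e-06). ACVR1, a type I receptor for BMPs, fell after IPPK knock-down (0.602 ± 0.0111) and was at 0.953 and 0.966 after DBP5 and GLE1 knock-down. ACVR1B, a type I activin receptor, fell after IPPK knock-down (0.695 ± 0.121, adjusted p = 0.0112) and was at 0.774 after DBP5 knock-down (adjusted p = 0.0552). ACVR2A passed in no comparison with control, with 95% intervals of 0.888 to 1.06, 0.991 to 1.18 and 0.844 to 1. ENG, the endoglin co-receptor, gave intensities of 786, 729.7 and 727 with control siRNA, 584, 616 and 633 with DBP5 siRNA, 773, 773 and 862 with GLE1 siRNA and 365, 361 and 393 with IPPK siRNA. The IPPK arrays lay lowest, the DBP5 arrays between them and control, and the GLE1 arrays overlapped control. Its ratio was 0.499 ± 0.023 after IPPK knock-down (adjusted p = 3.4e-07), 0.818 ± 0.0329 after DBP5 knock-down (adjusted p = 0.00254) and 1.07 ± 0.0685 after GLE1 knock-down.

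The SMADs were led by a fall of SMAD3. SMAD3, the main transducer of TGF-beta to its target genes, gave 2953, 2935 and 3014 with control siRNA, 1074, 1190 and 1042 with DBP5 siRNA, 2835, 2907 and 2856 with GLE1 siRNA and 1159, 1148 and 1158 with IPPK siRNA. The DBP5 and IPPK arrays lay far below all control arrays and overlapped each other. The ratio was 0.371 ± 0.0262 after DBP5 knock-down (adjusted p = 1.2e-08) and 0.389 ± 0.00205 after IPPK knock-down (adjusted p = 1.2e-08). With GLE1 siRNA SMAD3 stood at 0.966 ± 0.0124, with a 95% interval of 0.891 to 1.05. GLE1 knock-down differed from DBP5 knock-down by a ratio of 2.61 ± 0.0333 (adjusted p = 1.4e-08) and from IPPK knock-down by 2.48 ± 0.0317 (adjusted p = 1.2e-08). SMAD2, which is phosphorylated by the same receptors, was higher after GLE1 knock-down (1.42 ± 0.0837) and at 0.953 and 1.15 after DBP5 and IPPK knock-down.

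After GLE1 knock-down 6 of the 8 SMADs were higher, and SMAD3 and SMAD5 did not pass. DBP5 knock-down gave 2 higher and 1 lower, as did IPPK knock-down. SMAD1, of the BMP branch, was higher in each knock-down, at 1.57 ± 0.0827, 1.41 ± 0.0439 and 1.56 ± 0.0309 after DBP5, GLE1 and IPPK. SMAD9, of the same branch, was higher after GLE1 knock-down (1.24 ± 0.0338) and at 0.984 and 0.962 after DBP5 and IPPK knock-down. Its second probe passed as lower after IPPK knock-down (0.734), so the probes of SMAD9 disagree there. SMAD5 passed in no comparison with control, with 95% intervals of 0.722 to 1.01, 0.917 to 1.28 and 0.895 to 1.25. SMAD4, the partner of both branches, was higher after GLE1 knock-down (1.25 ± 0.0471) and at 0.884 (adjusted p = 0.0522) and 1.01 after DBP5 and IPPK knock-down. The DBP5 value of SMAD4 passed with the replicate block (adjusted p = 0.0281).

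SMAD6 and SMAD7 are inhibitory SMADs that the pathway itself induces. SMAD7 was higher in each knock-down, at 1.23 ± 0.102 with DBP5 siRNA, 1.29 ± 0.0483 with GLE1 siRNA and 1.20 ± 0.0455 with IPPK siRNA. SMAD6 was higher after GLE1 knock-down (1.51 ± 0.0542, adjusted p = 0.00015), where its intensities of 388, 413 and 389 lay above the 270.4, 285 and 235 of the control arrays, and at 0.987 and 0.901 after DBP5 and IPPK knock-down. The other inhibitors are BAMBI, a receptor-like protein without a kinase, and the nuclear co-repressors SKI and SKIL. All 3 were higher with DBP5 siRNA, 2 with GLE1 siRNA and 1 with IPPK siRNA. BAMBI gave intensities of 7575, 8898 and 7142 with control siRNA, 10486, 9002 and 9412 with DBP5 siRNA, 16072, 17854 and 17515 with GLE1 siRNA and 7201, 7600.5 and 7891 with IPPK siRNA. The GLE1 arrays lay far above all others, and the IPPK arrays overlapped control. Its ratio was 2.19 ± 0.121 after GLE1 knock-down (adjusted p = 1.3e-06), 1.23 ± 0.0977 after DBP5 knock-down (adjusted p = 0.0172) and 0.965 ± 0.0442 after IPPK knock-down. The DBP5 call was lost without control array 1 (adjusted p = 0.0572), control array 3 (0.0696) or DBP5 array 1 (0.0638).

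SKIL was higher in each knock-down, at 1.78 ± 0.0836 after DBP5, 1.65 ± 0.015 after GLE1 and 1.15 ± 0.0548 after IPPK. SKI was higher after DBP5 knock-down (1.42 ± 0.183) and at 0.852 ± 0.0227 (adjusted p = 0.082) after GLE1 and 1.19 ± 0.0569 (adjusted p = 0.065, and 0.0419 with the replicate block) after IPPK knock-down. GLE1 and DBP5 knock-down differed in SKI, with a ratio of 0.599 ± 0.016 (adjusted p = 0.00015).

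The promoters of SMAD6, SMAD7, SKIL and BAMBI are shown as examples of members that inhibit the pathway inside the cell or at its membrane and are induced by it. Each is the 250 bases before the start of the gene from RefSeq (GRCh38.p14), written 5′ to 3′ on the gene's own strand. They lie at chr15:66701986-66702235 (plus strand) for SMAD6, chr18:48950966-48951215 (minus strand) for SMAD7, whose first of 3 listed starts was used, chr3:170357465-170357714 (plus strand) for SKIL and chr10:28677271-28677520 (plus strand) for BAMBI. Capitals mark the SMAD motifs searched on both strands, which were the palindrome GTCTAGAC, the shorter motif CAGAC, which reads GTCTG from the other side, and a GC-rich motif spelled GGCGCC, which is its own reverse complement.
SMAD6: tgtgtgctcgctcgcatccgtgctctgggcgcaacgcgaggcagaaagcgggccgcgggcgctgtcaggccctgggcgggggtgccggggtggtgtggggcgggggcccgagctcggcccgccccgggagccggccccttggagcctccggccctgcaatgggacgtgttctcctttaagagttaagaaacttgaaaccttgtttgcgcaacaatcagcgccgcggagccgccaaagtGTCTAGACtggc
SMAD7: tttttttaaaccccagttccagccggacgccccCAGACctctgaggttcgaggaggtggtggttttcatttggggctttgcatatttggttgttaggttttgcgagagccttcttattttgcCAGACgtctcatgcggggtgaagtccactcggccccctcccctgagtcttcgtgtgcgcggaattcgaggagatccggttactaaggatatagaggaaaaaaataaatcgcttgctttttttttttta
SKIL: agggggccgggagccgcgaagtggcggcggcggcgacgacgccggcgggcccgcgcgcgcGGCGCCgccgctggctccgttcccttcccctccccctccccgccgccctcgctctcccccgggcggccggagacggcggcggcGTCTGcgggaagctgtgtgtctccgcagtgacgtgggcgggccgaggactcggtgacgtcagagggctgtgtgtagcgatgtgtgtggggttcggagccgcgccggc
BAMBI: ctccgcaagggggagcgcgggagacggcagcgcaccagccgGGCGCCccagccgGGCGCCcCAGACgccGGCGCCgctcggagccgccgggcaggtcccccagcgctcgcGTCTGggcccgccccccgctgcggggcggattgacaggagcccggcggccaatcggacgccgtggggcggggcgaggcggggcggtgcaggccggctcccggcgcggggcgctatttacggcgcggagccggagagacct
GTCTAGAC stood in 0.182% of the 35116 promoter windows of all genes and, among the 42 members with a window, in SMAD6 alone. CAGAC stood in 38% of all windows and 37% of the 73 windows of members, and GGCGCC in 16.4% of all windows and 28.8% of those of members. BAMBI held 2 CAGAC and 3 GGCGCC, SKIL 1 of each, SMAD7 2 CAGAC, and SMAD6 neither of these. A match is a description of the letters in this window and not of binding.

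After DBP5 knock-down 3 of the 9 were higher and 2 lower, after GLE1 knock-down 5 higher and 2 lower, and after IPPK knock-down 1 higher and 3 lower. FST, the follistatin that binds and neutralises activin, gave intensities of 6899, 7270 and 7196 with control siRNA, 2592, 2873 and 2669.8 with DBP5 siRNA, 2277, 2630.1 and 2644 with GLE1 siRNA and 4503, 4621 and 4697 with IPPK siRNA. All knock-down arrays lay below all control arrays, the IPPK arrays above the other knock-downs, and the DBP5 and GLE1 arrays overlapped. Its ratios were 0.380 ± 0.0204 after DBP5 (adjusted p = 6.1e-08), 0.353 ± 0.0292 after GLE1 (adjusted p = 1.7e-08) and 0.647 ± 0.0137 after IPPK knock-down (adjusted p = 1.7e-05). FSTL3, a follistatin-like protein that also binds activin, gave 2461, 2392 and 2798 with control siRNA, 4176, 5139 and 5392 with DBP5 siRNA, 5571, 5991 and 6122 with GLE1 siRNA and 2548, 2539 and 2612 with IPPK siRNA. The DBP5 and GLE1 arrays lay above all control arrays, with the GLE1 arrays highest, and the IPPK arrays overlapped control. Its ratios were 1.92 ± 0.252 after DBP5 (adjusted p = 1.3e-05), 2.31 ± 0.113 after GLE1 (adjusted p = 1.2e-06) and 1.01 ± 0.0157 after IPPK knock-down. FSTL1, a secreted protein of the same family, fell after IPPK knock-down (0.584 ± 0.0116) and was at 1.08 and 1.06 after DBP5 and GLE1 knock-down.

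GREM1, the BMP antagonist gremlin, is dim on these arrays and gave 47.8, 67.3 and 54.4 with control siRNA, 32.3, 40 and 38.3 with DBP5 siRNA, 21.2, 51.1 and 32.2 with GLE1 siRNA and 11.9, 17.3 and 23.4 with IPPK siRNA. The DBP5 and IPPK arrays lay below all control arrays and the GLE1 arrays overlapped them. None of the IPPK arrays was well above background, so that only a bound holds there. GREM1 was at least 2.92-fold lower than control after IPPK knock-down (measured ratio 0.302, adjusted p = 0.00081, limma), and 0.747 of control with the authors' processed values. After DBP5 and GLE1 knock-down its ratios of 0.657 ± 0.0718 (adjusted p = 0.133) and 0.585 ± 0.27 (adjusted p = 0.0533) did not pass. With the replicate block both passed as lower (adjusted p = 0.0341 and 0.0099). NOG, the BMP antagonist noggin, fell after GLE1 knock-down (0.705 ± 0.0355) and was at 0.939 and 0.983 after DBP5 and IPPK knock-down. CHRD, the BMP antagonist chordin, was higher after DBP5 (1.24 ± 0.0637) and GLE1 knock-down (1.32 ± 0.0635). Its second probe gave 0.811 and 0.964 there and did not pass, and the mean of its probes lost the calls (adjusted p = 0.974 and 0.349). The DBP5 call of CHRD was also lost without control array 2 (adjusted p = 0.123) or DBP5 array 1 (0.0782) or 3 (0.09).

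BMP1, a protease that cleaves chordin and procollagen and is no BMP ligand, gave 169, 166 and 189 with control siRNA, 267, 347 and 308 with DBP5 siRNA, 399, 434 and 480.1 with GLE1 siRNA and 152, 161 and 169 with IPPK siRNA. The GLE1 arrays were highest, the DBP5 arrays lay between them and control, and the IPPK arrays overlapped control. Its ratios were 1.75 ± 0.229 after DBP5 (adjusted p = 6.8e-05), 2.50 ± 0.235 after GLE1 (adjusted p = 1.1e-06) and 0.921 ± 0.0492 after IPPK knock-down. LTBP1, which holds latent TGF-beta in the matrix, was lower after DBP5 knock-down (0.762 ± 0.0707, adjusted p = 0.0319) and higher after GLE1 knock-down (1.41 ± 0.279). The DBP5 call of LTBP1 was lost without control array 2 or 3 or DBP5 array 2 or 3 (adjusted p between 0.0867 and 0.107), and its second probe, at 0.767, did not pass. LTBP2, a matrix protein of that family, was higher after GLE1 (1.49 ± 0.182) and IPPK knock-down (1.63 ± 0.14), and the GLE1 call was lost without control array 1 (adjusted p = 0.0581), control array 2 (0.0502) or GLE1 array 3 (0.0555).

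Among the 7 target and effector genes, 2 fell after DBP5 knock-down and the other 5 did not pass, at ratios of 0.959 to 1.07. GLE1 knock-down gave 1 lower and 2 higher, and IPPK knock-down 4 lower and 3 higher. ID2, one of the BMP-induced inhibitors of helix-loop-helix factors, gave 2466, 2675 and 2536 with control siRNA, 1909.8, 1963 and 1934 with DBP5 siRNA, 2367, 2411 and 2329 with GLE1 siRNA and 1144, 1189 and 1194 with IPPK siRNA. All 9 knock-down arrays lay below all control arrays, the GLE1 arrays just below them and the IPPK arrays lowest. Its ratios were 0.757 ± 0.0105 after DBP5 (adjusted p = 2.8e-05), 0.926 ± 0.016 after GLE1 (adjusted p = 0.0562, and 0.0465 with the replicate block) and 0.460 ± 0.0109 after IPPK knock-down (adjusted p = 1.6e-08), and its second probe gave 0.744, 0.905 and 0.425.

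The other ID genes took other directions. ID1 fell after IPPK knock-down (0.694 ± 0.0186), rose after GLE1 knock-down (1.19 ± 0.0576) and was at 0.959 after DBP5 knock-down. ID3 rose after IPPK knock-down (1.28 ± 0.0076) and was at 1.07 and 1.10 after DBP5 and GLE1 knock-down. ID4 fell after DBP5 knock-down (0.722 ± 0.0439) and IPPK knock-down (0.870 ± 0.0184, adjusted p = 0.0422). The IPPK call of ID4 was lost in 7 of the 12 fits that left out an array, which were those without control array 1 or 2, DBP5 array 3, GLE1 array 1 or any IPPK array (adjusted p between 0.0519 and 0.149).

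TGFBI and CCN2 encode matrix proteins that TGF-beta induces. TGFBI rose after GLE1 (1.38 ± 0.0869) and IPPK knock-down (1.38 ± 0.0551) and was at 1.05 after DBP5 knock-down. CCN2, the connective tissue growth factor, fell after GLE1 knock-down (0.765 ± 0.0884), rose after IPPK knock-down (1.26 ± 0.0644) and was at 1.00 after DBP5 knock-down. RUNX2, the transcription factor of the osteoblast lineage, fell after IPPK knock-down by its brighter probe (0.615 ± 0.027, adjusted p = 0.00035). Its second probe gave 1.05 and did not pass, and the mean of its probes lost the call (adjusted p = 0.359).

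The knock-downs were also compared with each other, in comparisons that share arrays. GLE1 knock-down was higher than DBP5 knock-down for 25 members (52.1%, against 26.5% of all genes) and lower for 9 (18.8%, against 28%). It was higher than IPPK knock-down for 27 members (56.2%, against 29.4%) and lower for 10 (20.8%, against 30.7%). DBP5 knock-down was higher than IPPK knock-down for 16 members (33.3%, against 23.8%) and lower for 14 (29.2%, against 25.1%). The median log2 difference over members was 0.27 for GLE1 minus DBP5, 0.30 for GLE1 minus IPPK and 0.05 for DBP5 minus IPPK, and over all genes 0.03, 0.02 and 0.00. With each array left out in turn, 27, 32 and 23 of the 34, 37 and 30 calls held in every fit.

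At a difference of at least 1.5-fold, GLE1 knock-down was higher than DBP5 knock-down for 9 members (18.8%, against 11.5% of all genes) and lower for 3 (6.25%, against 13.6%), and at least 2-fold higher for TGFB2 and SMAD3 (4.17%, against 4.62%) and lower for TGFBR1 (2.08%, against 5.35%). It was at least 1.5-fold higher than IPPK knock-down for 18 (37.5%, against 13.8%) and lower for 6 (12.5%, against 15.6%). At 2-fold, 8 members were higher in this comparison (16.7%, against 6.18%) and 1 lower (2.08%, against 7.2%). DBP5 knock-down was at least 1.5-fold higher than IPPK knock-down for 11 members (22.9%, against 9.48%) and lower for 3 (6.25%, against 9.3%). At 2-fold by the measured ratio, TGFB2 and GREM1 were higher in this comparison (4.17%, against 3.34%). For GREM1 only the bound of at least 1.92-fold holds. The ratio of TGFB2 was 2.08, and its limma interval of 1.79 to 2.43 also holds values below 2-fold. Neither gene is therefore known to reach 2-fold. Among all genes 3.29% were lower at this fold, but 0 members, whose lowest ratio was 0.588. The call of GREM1 between DBP5 and IPPK knock-down was lost without IPPK array 1 (adjusted p = 0.0505) and with the mean of its probes (0.0716), of which the second was well above background on 0 of the 12 arrays. Its call between GLE1 and IPPK knock-down was lost with that mean (adjusted p = 0.13) and without GLE1 array 2 (0.0858) or 3 (0.0502) or IPPK array 1 (0.0869).

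TGFB2 was 2.08 ± 0.0923 times as high after GLE1 as after DBP5 knock-down (adjusted p = 6.4e-06) and 4.34 ± 0.192 times as high as after IPPK knock-down (adjusted p = 3.2e-08). BMP2 was 1.99 ± 0.1 and 1.66 ± 0.0833 times as high in these comparisons. TGFBR1 differed in the other direction, at 0.225 ± 0.0363 of DBP5 (adjusted p = 3e-06) and 0.281 ± 0.0454 of IPPK knock-down (adjusted p = 8.3e-06). It was well above background on 2 of the 3 GLE1 arrays, and with the authors' values its log2 differences were -0.71 and -0.52. BAMBI was 1.78 ± 0.0985 and 2.27 ± 0.125 times, and ID2 1.22 ± 0.0211 and 2.01 ± 0.0348 times as high after GLE1 as after DBP5 and IPPK knock-down. Between DBP5 and IPPK knock-down, TGFB2 (2.08 ± 0.304), BMP1 (1.91 ± 0.248), FSTL3 (1.90 ± 0.25) and FSTL1 (1.86 ± 0.0678) were higher after DBP5 knock-down, and FST (0.588 ± 0.0315), LTBP2 (0.622 ± 0.118) and INHBA (0.629 ± 0.0392) lower. SMAD3 had a ratio of 0.953 between DBP5 and IPPK knock-down, with a 95% interval of 0.879 to 1.03.

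**Figure D4:**
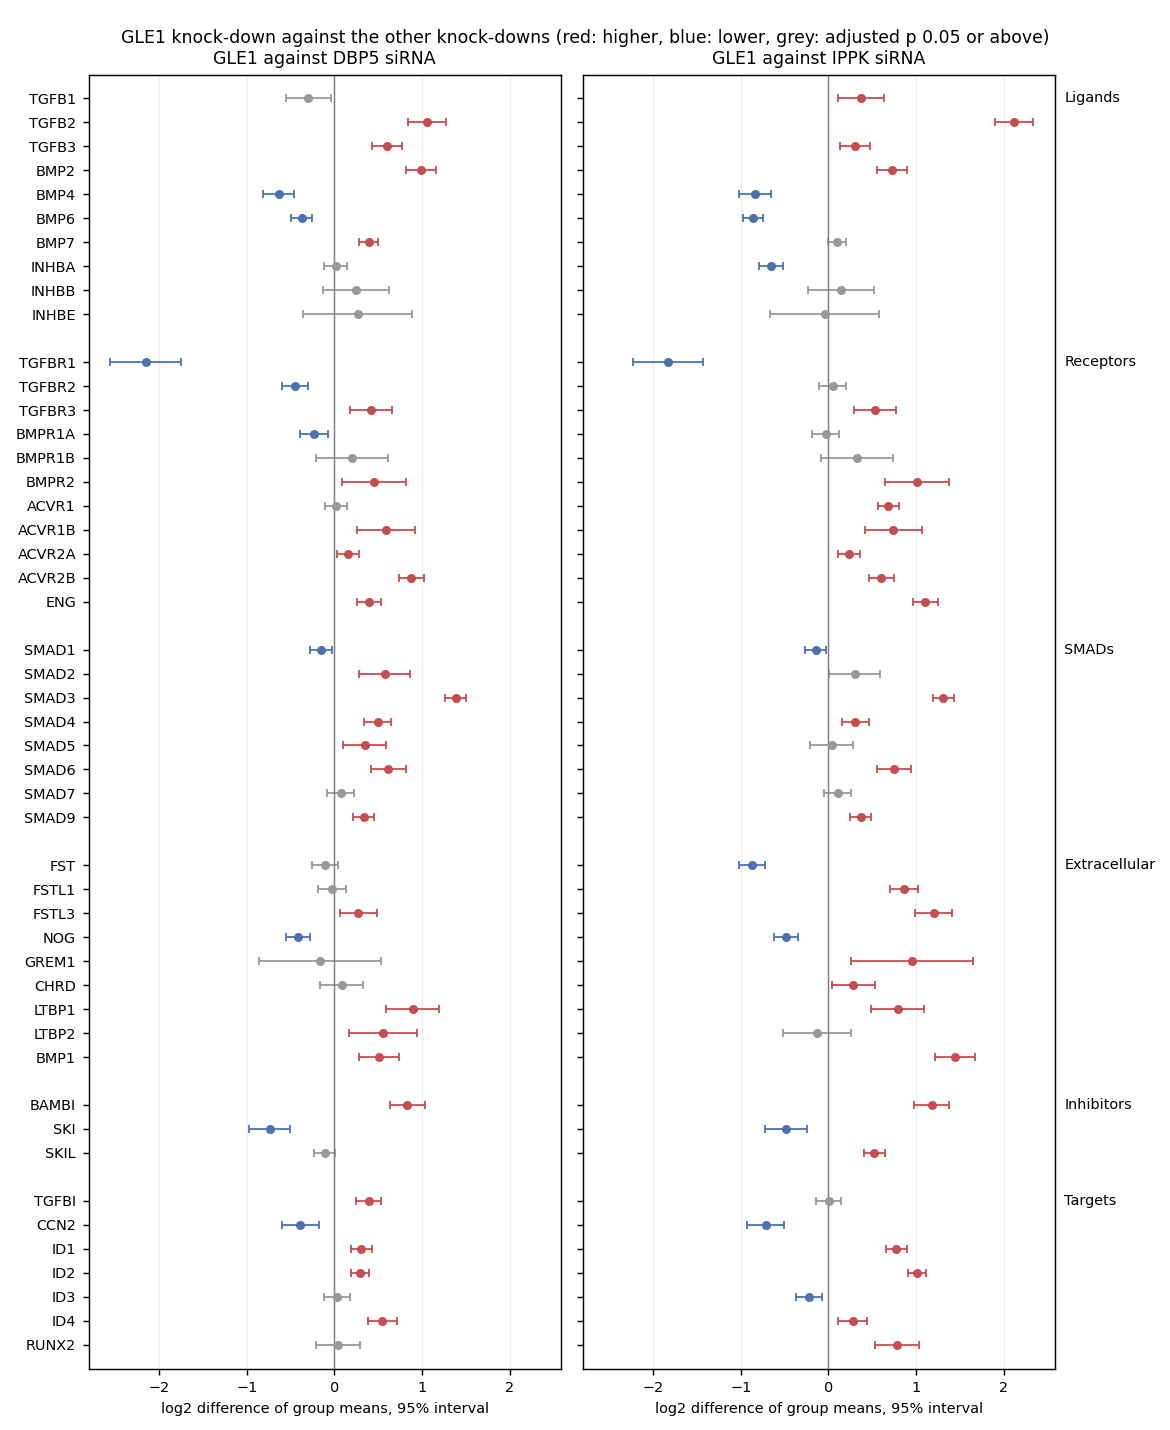
Log2 difference of group means, with its 95% interval, of the 48 members in GLE1 knock-down against DBP5 knock-down (left) and against IPPK knock-down (right), ordered by role and coloured by limma call. Of the members, 25 and 27 are higher after GLE1 knock-down (red) and 9 and 10 lower (blue), with TGFBR1 farthest to the left on these values.

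Of 56 further pathway genes outside the 48, 44 were tested. After GLE1 knock-down 26 were higher and 7 lower (median log2 difference 0.46), while DBP5 siRNA gave 19 and 8 (0.12) and IPPK siRNA 17 and 11 (0.07). Of all genes, 30.6% were higher and 31.5% lower with GLE1 siRNA, 26.7% and 27.5% with DBP5 siRNA and 27.3% and 28% with IPPK siRNA. Of their 13 intracellular regulators, 7, 10 and 6 were higher with DBP5, GLE1 and IPPK siRNA, and 2 and 1 were lower with GLE1 and IPPK siRNA. SMURF2, a ubiquitin ligase that acts on receptors and SMADs, was at 2.51 ± 0.0888 with DBP5 siRNA, 3.24 ± 0.0844 with GLE1 siRNA and 2.96 ± 0.153 with IPPK siRNA. NEDD4L, a related ligase, was at 1.42 ± 0.0896, 5.57 ± 0.0784 and 2.71 ± 0.0145. The SMAD4 ligase TRIM33 (2.40 ± 0.0917) and the SMAD anchor ZFYVE9 (2.36 ± 0.0621) also rose at least 2-fold after GLE1 knock-down. Of 8 further target genes tested, 5 were higher and 1 lower with DBP5 siRNA, 5 higher with GLE1 siRNA, and 3 higher and 2 lower with IPPK siRNA. Among them the transcription factor SNAI2 was at 1.70 ± 0.0727, 4.29 ± 0.431 and 1.44 ± 0.143. All values of SMURF2, NEDD4L and SNAI2 passed limma.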

How the data were processed

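Per the file headers, the deposited array files come from Agilent Feature Extraction 10.7.3.1 on a design named for hg19, and hold for each spot a background-subtracted linear intensity, median spot and background intensity, and flags. The authors also deposited a table of log2 values, normalised by LOESS regression in R per the methods. Each of its columns followed the log2 median spot signal without background subtraction (r at least 0.9998 across probes).

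Here, log2 of the background-subtracted intensity was normalised by cyclic loess, without control spots and 169 to 358 outlier spots per array, and spots of a probe were averaged. Of 34127 probes, 26449 (77.5%) were named through RefSeq accessions, and the others kept the name of the design. The brightest probe stood for a gene. A gene was kept where every array of 1 or more siRNAs read it well above background, which 20821 were, and 18425 were so on all 12 arrays. No spot was saturated, and the number of arrays limits the precision. limma 3.58.1 (R 4.3.3) fitted 1 mean per siRNA, with Benjamini-Hochberg adjustment within each comparison, and was tested on simulated data. Levels are given by array for members called at 2-fold or more, and other pathway genes are named by the same rule, except some that are not reported here. The rule for members uses gene names alone, but members and lists were proposed with earlier results of these data known. Python 3.11.15 with matplotlib 3.10.9 made the plots and read the promoters.

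The replicate number marks the slide. Deviations from group means correlated at 0.315 to 0.545 in the 18 pairs of arrays with the same number and at -0.333 to -0.016 in the 36 other pairs, so the numbers pair the arrays. Alternatives were 75th percentile scaling, quantile normalisation, normexp (offset 50, on median signals since the mean signals planned for were not used here), the authors' values, no filter or a filter on all 12 arrays, each probe or the mean over probes, the replicate block, only the 6 arrays compared, the methods' t-test (paired by number) and leaving out each array.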

Additional observations from a re-analysis of the deposited data

How the results depend on the processing

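No member called in the 6 comparisons changed direction under the alternatives run, other than the choice of probe. Single dimmer probes lay on the other side of 1, without passing, for RUNX2 after IPPK (1.05), CHRD after DBP5 (0.811) and GLE1 knock-down (0.964) and BMPR1A in DBP5 against IPPK (both others, the lower at 0.929). Of 189 calls, quantile normalisation lost 0, the replicate block 1, 75th percentile scaling 3, the authors' values 4, normexp 6, no filter on dim probes 10, the mean of a gene's probes 11 and fits of only the 6 arrays compared 12. The filter on all 12 arrays lost 0 of the 182 it could test. With the authors' values 11 members were lower after GLE1 knock-down instead of 7, where 31% of all genes were lower with these values. The 4 calls added were INHBE, ACVR2B, GREM1 and SKI. The counts that follow have no share over all genes beside them. The methods' t-test, paired by number here, comes from their general statistics section, while their array gene lists came from rank products. It lost 86 calls after Benjamini-Hochberg adjustment. It called 6 members lower and 8 higher after DBP5, 6 and 19 after GLE1, and 11 and 6 after IPPK knock-down. GLE1 against DBP5 gave 4 lower and 9 higher, and GLE1 against IPPK 8 and 20. DBP5 against IPPK gave 3 lower and 6 higher. At an unadjusted p of 0.05 the t-test called 13 lower and 12 higher after DBP5, 8 and 24 after GLE1 and 13 and 14 after IPPK knock-down. Leaving out each array in turn gave 11 to 14 lower and 15 to 17 higher after DBP5, 7 to 9 and 23 to 25 after GLE1, and 12 to 15 and 12 to 16 after IPPK knock-down. It gave 8 to 10 lower and 21 to 25 higher for GLE1 against DBP5, 8 to 10 and 24 to 27 for GLE1 against IPPK, and 11 to 14 and 15 to 17 for DBP5 against IPPK. With the replicate block, which pairs arrays by slide, members were lower and higher in 15 and 17 cases after DBP5, 10 and 24 after GLE1, 16 and 14 after IPPK, 10 and 25 for GLE1 against DBP5, 10 and 28 for GLE1 against IPPK and 16 and 16 for DBP5 against IPPK. The call it lost was BMPR1A in DBP5 against IPPK (adjusted p = 0.0535), and outside the comparisons with control it added TGFB1 for GLE1 against DBP5 (0.0244), SMAD2 for GLE1 against IPPK (0.039), and BMP4 (0.0139), INHBE (0.0411) and SKI (0.0456) for DBP5 against IPPK. The causes of these changes were not tested. Differences from control that moved by over 1.5-fold were those of TGFBR1 and BMPR2 after GLE1 and GREM1 after IPPK knock-down, with the authors' values or normexp, which treat the background differently.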

Other observations

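Some ligands, receptors and extracellular proteins of the pathway outside the 48 genes also differed from control by a measured ratio of at least 2-fold. GDF15, a stress-induced member of the ligand family, was 2.56 ± 0.037 times control after GLE1 knock-down and 0.611 ± 0.0336 and 0.597 ± 0.0387 after DBP5 and IPPK knock-down, all past limma. ACVR1C, a type I receptor for nodal, rose to 3.95 ± 0.299 after IPPK knock-down and fell to 0.596 ± 0.048 after GLE1 knock-down. ACVRL1, a type I receptor of endothelial cells, was well above background on all 3 control arrays and on 1 array after GLE1 knock-down. It was so on no array after DBP5 or IPPK knock-down, with bounds of at least 3.58-fold and 3.46-fold lower. AMHR2, the receptor for anti-Mullerian hormone, was well above background on 0 of 3 control arrays, on 1 after IPPK and on 3 after GLE1 knock-down. After GLE1 knock-down only a bound of at least 1.65-fold higher holds.

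Among BMP-binding proteins, BMPER was at 1.43 ± 0.126, 3.88 ± 0.366 and 2.18 ± 0.133 in the order DBP5, GLE1, IPPK, all past limma. TWSG1 rose to 2.88 ± 0.191 after GLE1 and 2.10 ± 0.198 after IPPK knock-down. CHRDL1 fell to 0.328 ± 0.0422 after DBP5 knock-down. The matrix proteoglycan DCN rose to 2.54 ± 0.623 after GLE1 knock-down. The target genes MSX2 (2.11 ± 0.0919) and BHLHE40 (2.00 ± 0.212) also rose after GLE1 knock-down.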
